A study of Bos taurus with 12 samples.

Results

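Potassium channel genes are described here by the methylation of blood DNA in 12 dairy cows. Members were all genes whose symbol starts with KCN, as given in both deposited tables for the gene nearest to a CpG cytosine (a site) or to a window of 500 bases (a tile). The rule found 63 genes of the 11830 genes listed, with 1262 of 196275 sites and 9 of 1227 tiles. A further 32 of the 95 KCN symbols of the RefSeq gene table had no listed row. MSG, the mastitis susceptible group, held 6 cows that had no mastitis complications identified at sampling and were culled because of them during the following year. MRG, the mastitis resilient group, consisted of 6 cows with a like spread of ages which had remained in the herd for that 1 year. All cows were kept under the same conditions on one farm, and the labels gave no treatment, breed, parity, batch or blood cell count. Cows are named by group and a number that follows the order of the records and pairs no cows. The label of whole blood could not be checked against expression markers, since only methylation was measured.

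Potassium channels let potassium ions leave or enter a cell and so set the voltage across its membrane. In leukocytes that voltage drives calcium entry, on which activation, secretion and migration depend, and potassium efflux is a known trigger of the NLRP3 inflammasome in macrophages. The family has pore-forming subunits that open with voltage, with calcium or sodium, or at rest, and auxiliary subunits that change where and how the pores work. Methylation of CpG cytosines is a chemical mark of DNA that is often, though not always, low at the starts of active genes. The enzymatic conversion used here protects methylated and hydroxymethylated cytosines, so both count as methylated. A thymine carried in a cow's own genome at such a position reads as an unmethylated cytosine. Genotypes were not measured and the part of sequence variants in any value below was not tested. Blood is a mixture of cell types, and the part of its cell composition was not tested either.

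Each value is a percentage of methylated reads in 1 cow, and differences are MSG minus MRG in percentage points. All rows had been selected by the authors on these same cows for a difference of at least 25 points and a q-value of at most 0.01, so the tests below describe the spread between cows and are not independent evidence. The authors' difference is not the difference of the cow means used here, which gave every cow equal weight and was under 25 points at some sites. Averaged over the 1262 potassium channel sites, single cows stood at 51.2% to 59% in MSG and at 47.8% to 53.1% in MRG, and these ranges overlapped. Over all listed sites MSG cows averaged 54.6% ± 0.485 and MRG cows 52.9% ± 0.75, where ± is the SD over the 6 cows of a group here and in all means below, unless another n is given. Read depth was not used, so the spread between cows is the measure of error.

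Sites near potassium channel genes were more often higher than lower in MSG. Of 1262 sites, 745 were higher and 517 lower, a share of 59% (Wilson 95% interval 56.3% to 61.7%, which treats sites as independent) against 52.7% over all listed sites. Neighbouring sites are not independent, and no test of this share was made. The share was 56.8% when each run of sites closer than 1 kb counted once. It was 57.4% when each gene counted once, with 35 genes mostly higher, 26 mostly lower and 2 even. Neither way of counting was applied to all listed sites, so these shares have no matching background. Over the 275 sites at which no cow stood at exactly 0 the share was 52%, below the 57.3% of all such listed sites.

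The channel classes did not share one direction. Inward rectifiers, which pass potassium more easily into than out of the cell and hold the resting voltage, had 218 of 321 sites of 10 genes higher in MSG (67.9%). Voltage-gated pores, which repolarise cells after a change of voltage, had 138 of 230 sites of 22 genes higher (60%). Tandem pore domain channels, which carry the background leak of potassium, had 174 of 296 sites of 11 genes higher (58.8%). Electrically silent subunits, which work only together with voltage-gated partners, had 20 of 35 sites of 5 genes higher (57.1%). Auxiliary and interacting subunits had 117 of 210 sites of 9 genes higher (55.7%). Channels opened by calcium, sodium or a shift in pH inside the cell had 78 of 170 sites of 6 genes higher (45.9%), and KCNU1 alone held 79 of the 92 lower ones. Counted by genes, the picture differed. Inward rectifiers had 6 genes mostly higher and 4 mostly lower, and voltage-gated pores 13 and 7, but tandem pore domain channels had 5 and 6, auxiliary subunits 4 and 5 and silent subunits 2 and 3. The channels opened by calcium, sodium or pH had 5 genes mostly higher and 1, KCNU1, mostly lower. Over sites with no cow at 0, 25 of 75 tandem pore domain sites, 1 of 13 silent subunit sites and 25 of 42 sites of the calcium, sodium or pH class were higher in MSG. Single genes weighed on these counts. KCNV2 held 10 of the 13 silent subunit sites, with 0 higher, and KCNU1 29 of the 42, with 13 higher. Of the tandem pore domain channels KCNK10 had 5 of 26 higher, KCNK13 0 of 17 and KCNK9 12 of 14. Differences between classes were not tested.

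**Figure D1:**
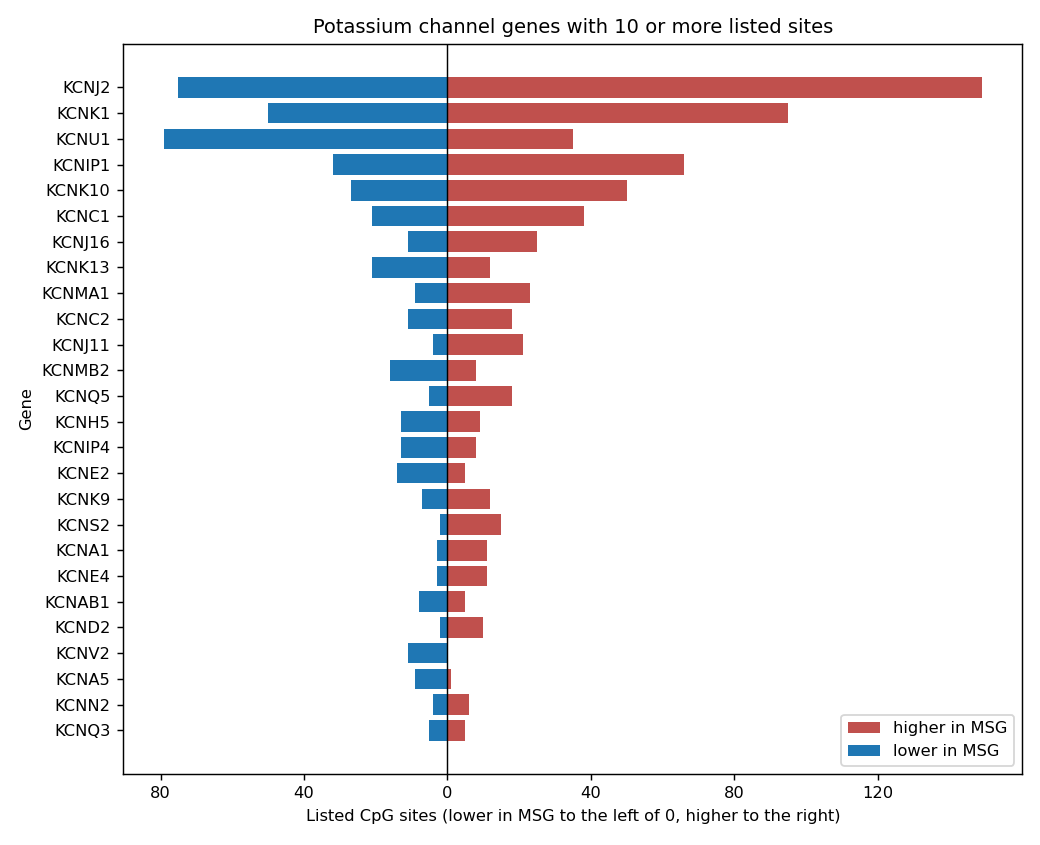
Numbers of listed sites near the 26 potassium channel genes with 10 or more sites, lower in MSG to the left (blue) and higher in MSG to the right (red). KCNJ2 had 149 sites higher and 75 lower, whereas KCNU1 had 35 higher and 79 lower, and most genes had sites of both directions.

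A few genes held most of the sites. KCNJ2 with 224 sites, KCNK1 with 145, KCNU1 with 114, KCNIP1 with 98, KCNK10 with 77 and KCNC1 with 59 together held 717 sites (56.8%), while 11 genes had 1 site each and the median gene had 8. As the plot of sites by gene shows, both directions occurred in nearly all of the larger genes. Most sites lay away from the genes they are named for. Of the 1262 sites, 668 were annotated as distal intergenic (61.5% higher in MSG, against 52.8% of all such listed sites). Intronic were 559 (56.7% higher, against 52.5%). Only 24 were promoter sites (1.9%, against 5.44% of all listed sites), 12 higher and 12 lower, where 54.4% of all promoter sites were higher. Exonic were 8 (4 and 4, against 50.1% higher). Between the start and end of the gene model lay 400 sites (31.7%, against 23% of all listed sites), of which 52.8% were higher in MSG (against 53.2% of all such sites), and 445 lay over 100 kb from the transcription start.

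For 123 sites (9.75%) the annotation placed the cytosine in a transcript of another gene. All 25 sites of KCNJ11, the pore of the ATP-sensitive channel of pancreatic beta cells, were placed in ABCC8, which encodes the regulatory subunit of that channel. The 7 such sites of KCNJ8, the pore of the vascular ATP-sensitive channel, were placed in ABCC9, which encodes its regulatory subunit. For KCNC1 there were 24 such sites in SERGEF, for KCNK13 20 in TDP1, and for KCNK9 and KCNS2 14 each in TRAPPC9 and STK3. Values given under these symbols therefore describe sequence near the channel gene and in part inside a neighbour.

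Tiles were the longer of the 2 units and varied less between cows than sites. The 5 genes KCNJ2, KCNK1, KCNU1, KCNMA1 and KCND2 had a listed tile, and KCNK1 had 5. By limma's moderated test on percent methylation, adjusted over all 1227 tiles, 8 of the 9 tiles passed a threshold of 0.05 (88.9%), against 73.3% of all listed tiles. Of these 8, 4 were higher in MSG (44.4% of 9 tiles, against 41.6% of all) and 4 lower (44.4%, against 31.6% of all). At an unadjusted p under 0.05 limma also gave 8 of 9, against 83.5% of all. An exact permutation test over the 924 regroupings of the cows passed 4 of 9, against 17.4% of all tiles. These 4 were the KCNJ2 tile and the KCNK1 tiles at 44.3 kb, 59.5 kb and 59.8 kb, the last 2 with identical values (adjusted p = 0.0499). By the same test the adjusted p was 0.0747 for the upstream KCNK1 tile and 0.0692 for that at 29.8 kb. It was 0.0734 for KCND2, 0.0566 for KCNU1 and 0.166 for KCNMA1. The cows of the groups did not overlap in 2 tiles (22.2% of 9, against 6.03% of all), 1 higher (against 3.67% of all) and 1 lower in MSG (against 2.36%). KCNK1 contributed 2 overlapping tiles with identical values, so the 9 tiles are 8 regions.

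**Figure D2:**
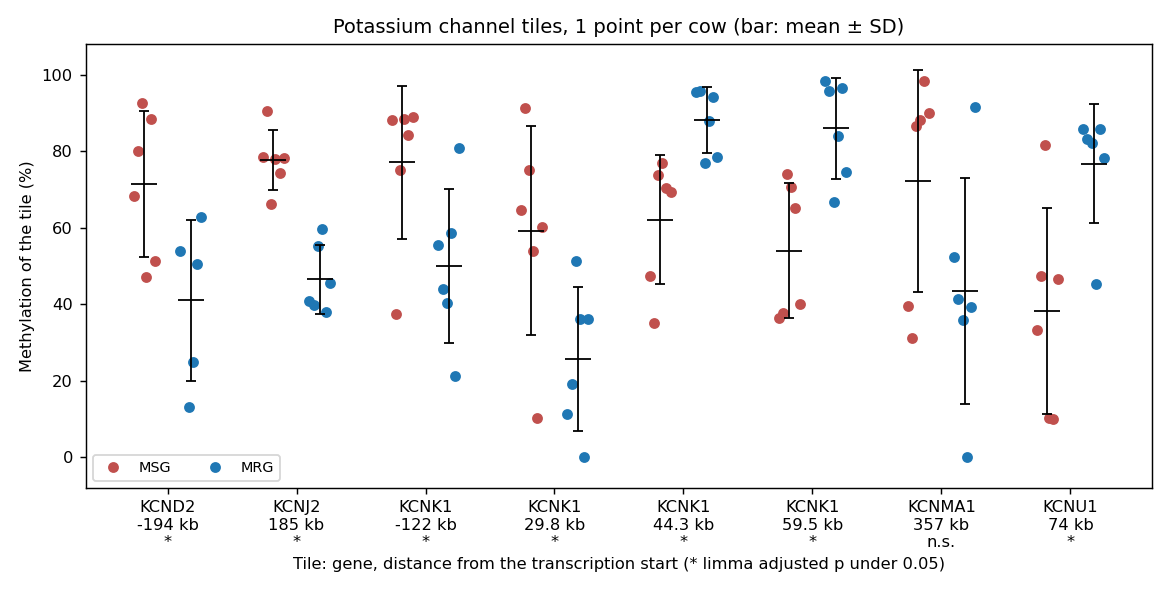
Percent methylation of potassium channel tiles, 1 point per cow, MSG left of MRG at each tile, with mean ± SD bars; the horizontal axis gives the gene and the distance from its transcription start in kb. The 2 overlapping KCNK1 tiles with identical values are drawn once, at 59.5 kb, and the groups do not overlap at KCNJ2 and at the KCNK1 tile 44.3 kb from the start.

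KCNJ2 encodes an inward rectifier that stabilises the resting voltage and is known in macrophages as well as heart and skeletal muscle. Its tile lay in distal intergenic sequence on chromosome 19, 60433251 to 60433750 (ARS-UCD1.2), 185 kb downstream of the start. Methylation was at the lowest 66.3%, at the median 78% and at the highest 90.6% in MSG, against 38%, 43.1% and 59.6% in MRG. Every MSG cow stood above every MRG cow. MSG cows averaged 77.6% ± 7.86 and MRG cows 46.4% ± 8.91, a difference of 31.2 points (SE 8.34, 95% interval 13.8 to 48.6, limma adjusted p = 0.0347). This call held in all 12 fits that left out 1 cow, with adjusted p of at most 0.0482.

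KCNK1, a tandem pore domain channel of low resting activity, had tiles of both directions on chromosome 28. The upstream tile (6328751 to 6329250, distal intergenic, 122 kb before the start) had a lowest, median and highest value of 37.5%, 86.2% and 89% in MSG, against 21.1%, 49.7% and 80.9% in MRG. Except for MSG 2 and MRG 6, MSG cows stood at 75% or more and MRG cows at 58.7% or less. The difference was 27.0 points (SE 11.2, limma adjusted p = 0.0423). The tile in intron 1 of 2 at 29.8 kb (6481501 to 6482000) ran from 10.3% through a median of 62.4% to 91.2% in MSG, against 0%, 27.5% and 51.4% in MRG. Only MSG 5, at 10.3%, stood within the range of the MRG cows. It was 33.6 points higher in MSG (SE 12.3, limma adjusted p = 0.0358).

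Further along the same KCNK1 intron the direction was the opposite. The tile at 44.3 kb (6496001 to 6496500) stood at 35.1%, 69.7% and 76.8% (lowest, median, highest) in MSG, against 76.9%, 91% and 95.6% in MRG, with no overlap but a gap of less than 1 point between the nearest cows. The difference was -26.0 points (SE 9.36, limma adjusted p = 0.0350). The overlapping tiles at 59.5 kb and 59.8 kb (6511251 to 6511750 and 6511501 to 6512000) stood at 36.5%, 52.5% and 74.1% in MSG, against 66.7%, 89.8% and 98.3% in MRG. The groups overlapped there through MSG 3, MSG 4 and MRG 3. They were 32.0 points lower in MSG (difference -32.0, SE 9.92, limma adjusted p = 0.0347). Leaving out 1 cow ended the call of the upstream tile in 9 of 12 fits, that of the tile at 29.8 kb in 7 and that of the tile at 44.3 kb in 5, with adjusted p up to 0.0924, 0.0622 and 0.0621. It ended none for the overlapping pair.

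KCNU1 encodes a channel known in mouse and human sperm, where it opens as the cell interior becomes alkaline, and its RefSeq name places it with the calcium-activated channels. Its tile in intron 18 of 25 (chromosome 27, 32211001 to 32211500) lay 74.0 kb from the start. The lowest, median and highest values were 10%, 39.9% and 81.5% in MSG, against 45.3%, 82.6% and 85.8% in MRG. MSG 3 stood with the MRG cows and MRG 4 with the MSG cows. The difference was -38.6 points (SE 11.8, limma adjusted p = 0.0347), the largest of the 9 tiles in size, and the exact permutation test gave an adjusted p of 0.0566. With each cow left out limma's call held, with adjusted p of at most 0.0482.

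KCND2 encodes a pore of the fast transient voltage-gated current of neurons and heart. Its tile lay 194 kb before the start on chromosome 4 (84493751 to 84494250) and had no value for MRG 2. Methylation stood at 47.2%, 74.1% and 92.6% in MSG, against 13%, 50.5% and 62.9% in 5 MRG cows. The groups overlapped between 47.2% and 62.9%. The difference of 30.2 points (SE 11.7) passed limma's test (adjusted p = 0.0377), but not in 8 of the 12 fits without 1 cow. Limma's adjusted p reached 0.0812, without MRG 3. One of these fits left out MRG 2, which has no value here. There the difference stayed at 30.2 points, and the adjusted p of 0.0501 changed only through the other tiles.

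KCNMA1 encodes the pore of the large-conductance channel that opens with calcium and voltage together. The tile in intron 13 of 29 (chromosome 28, 32803751 to 32804250, 357 kb from the start) stood at 31.2%, 87.3% and 98.4% in MSG, against 0%, 40.4% and 91.6% in MRG. The groups overlapped widely, with MSG 1 and MSG 2 among the lower cows and MRG 6 among the higher ones. It did not pass limma's test (difference 28.9 points, SE 14.2, adjusted p = 0.0649). It passed without MSG 2 (adjusted p = 0.0482) or without MRG 6 (adjusted p = 0.0368).

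At single sites the spread between cows was large beside the difference. The SD among the cows of a group had a median of 25.6 points over potassium channel sites, beside a median size of the difference of 33.5 points. By limma's test 0 of the 1262 sites passed the adjusted threshold (lowest adjusted p among the sites named here = 0.0781), as did 0% of all listed sites. At an unadjusted p under 0.05 there were 718 (56.9%, against 51.9% of all listed sites). The exact permutation test likewise passed 0 sites after adjustment, with 542 at an unadjusted p under 0.05 (42.9%, against 35.5% of all). Groups of cows did not overlap at 33 sites (2.61%, against 2.36% of all), 20 higher (1.58%, against 1.39%) and 13 lower (1.03%, against 0.971%) in MSG.

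Among the 275 sites with no cow at exactly 0, tested together with all 42667 such sites of the table, 193 passed limma's test (70.2%, against 73.1% of all such sites). They were 93 higher (33.8%, against 42.4% of all such sites) and 100 lower (36.4%, against 30.7%) in MSG. KCNK10 had 26 such sites, all called, 5 of them higher and 21 lower. KCNU1 had 24 of 29 called, KCNIP1 18 of 30, KCNK13 13 of 17, none of the 13 higher, and KCNK9 13 of 14, 12 of them higher. These counts leave out the 987 sites (78.2%) with a cow at 0, of which 61% were higher in MSG.

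Across sites the cow values were not spread evenly over the scale. Of the cow values of MSG, 17.4% were at 10% methylation or less, 35.5% between 30% and 70%, and 27.5% at 90% or more. In MRG the shares were 26.4%, 30.3% and 24.8%. Over all listed sites they were 21.9%, 31.6% and 28.3% in MSG, and 22.6%, 32.3% and 26.3% in MRG. Exactly 0 was the value in 17% of cases in MSG and 25.7% in MRG, whereas over all listed sites the shares were 21.4% in MSG and 21.9% in MRG. Single MSG cows had 15.4% to 18.3% of their values at 0, and MRG cows 22.6% to 32%, with MRG 1 the highest and no overlap between the groups. These are sites chosen for their difference, and the measure was not tested.

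**Figure D3:**
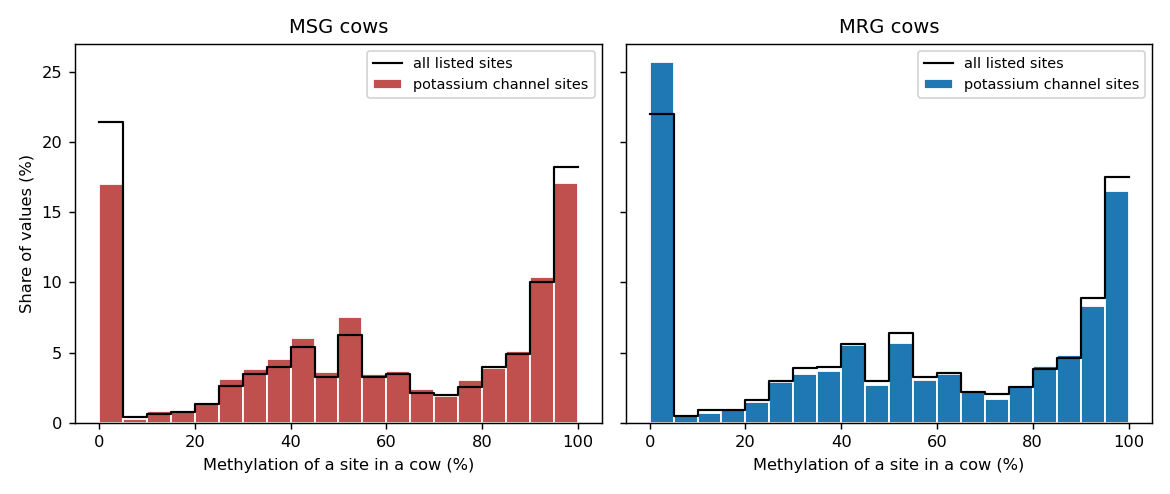
Share of values (%) in bins of 5 points of percent methylation, pooled over 6 cows, for potassium channel sites (bars) and all listed sites (black line), MSG left and MRG right. Values pile up at the lowest bin, which held 17% of the values in MSG and 25.7% in MRG, in the middle and at the top.

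Where a CpG was listed on both strands, the strands gave like values. The 1262 sites were 993 CpGs, of which 269 were listed on both strands, and all 269 had the same direction on both. The median difference between the strands in a cow was 5.88 points. Of 761 cow values with at least 1 strand at exactly 0, both strands were at 0 in 731 (96.1%). Among these 269 CpGs a value of 0 was thus rarely seen on 1 strand alone. Both of their strands had been selected for a difference in these cows, which favours agreement. CpGs listed on 1 strand could not be compared.

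Levels were also largely kept along neighbouring sites of the same direction. Of 641 runs of sites less than 1 kb apart, 384 held 1 site, 110 held at least 3, and 79 of those 110 held sites of 1 direction. In the longest, 25 sites over 4.78 kb of intergenic sequence 29.3 kb to 34.1 kb downstream of the KCNJ2 start (chromosome 19, 60584730 to 60589504), 21 sites were higher in MSG. Over these 21, MSG cows averaged 93.7%, 95.5%, 91.4%, 55.4%, 47.2% and 93.8%, against 0.529%, 46.2%, 46.7%, 44.1%, 41.1% and 0% in MRG cows. MSG 1, 2, 3 and 6 were nearly fully methylated and MRG 1 and 6 nearly unmethylated, with the other cows in between. MRG 1 stood at exactly 0 at 20 of the 21 sites and MRG 6 at all 21. At the 4 sites of opposite direction in the same run MSG 1, 2, 3 and 6 stood at 0, MSG 4 and 5 at 39.8% and 63.7%, and MRG cows between 36.7% and 85.1%.

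The run of 24 sites in the KCNU1 intron (chromosome 27, 32206836 to 32211488), which holds the tile, showed the same kind of steps with the groups exchanged. Over its 22 lower sites MSG cows averaged 39.5%, 47.3%, 90.9%, 0%, 0% and 43.5%, against 92.1%, 89.8%, 89.6%, 39.8%, 89.5% and 88.7% in MRG cows. MSG 4 and 5 stood at exactly 0 at all 22 sites. Over these 22 sites the SD between cows was 35.6 points, and between the sites of one cow it averaged 10.8 points. At the 2 higher sites in this run MSG cows stood at 93.3% to 100%, against 26.9% to 100% in MRG cows.

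**Figure D4:**
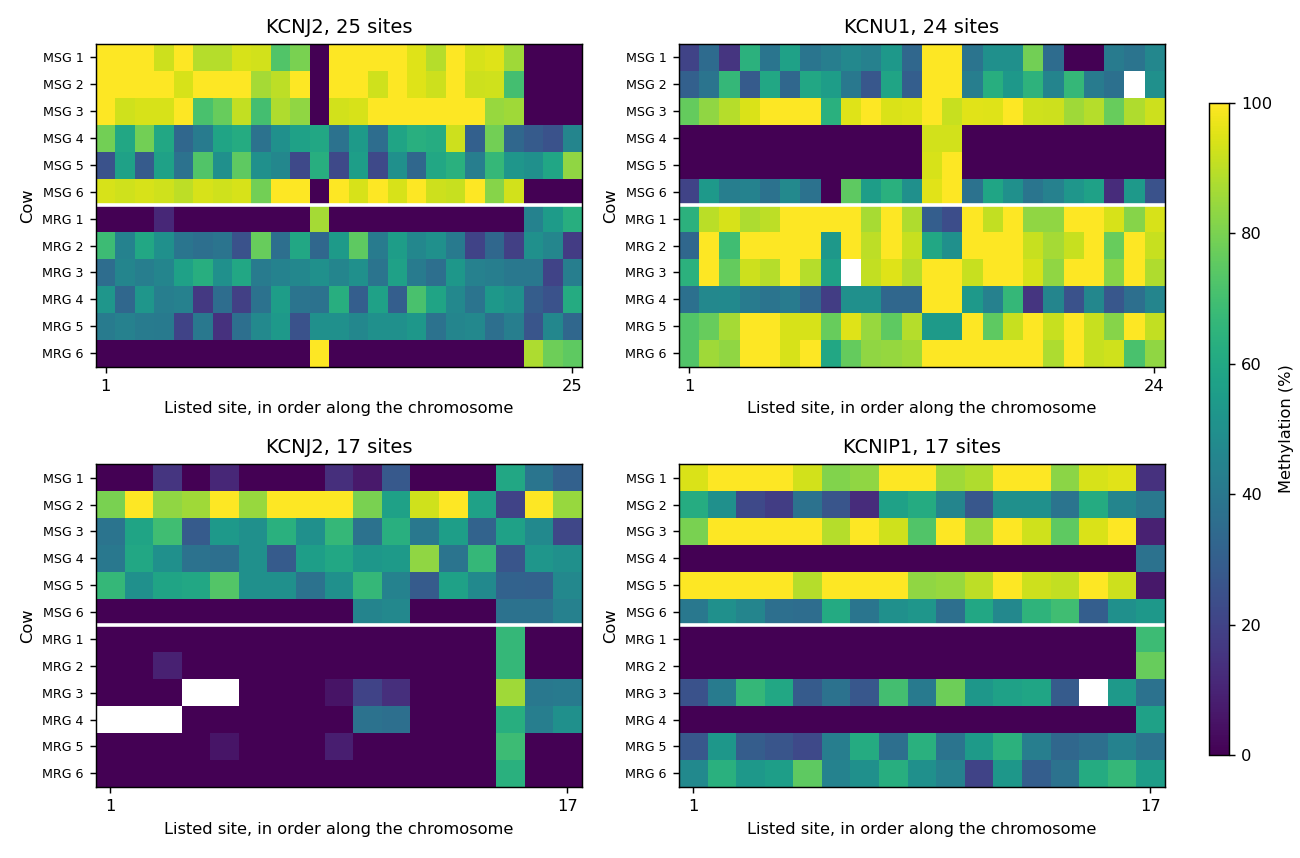
Percent methylation (colour) of each cow (rows, MSG above the white line and MRG below) at each site (columns, in order along the chromosome) of the 4 longest runs; white cells have no value. At sites of a run's more frequent direction a cow mostly keeps its level, as MRG 1 and MRG 6 do near 0 at 21 sites of the KCNJ2 run of 25. MSG 4 and MSG 5 do so at 22 sites of the KCNU1 run. At the other 4 sites of the KCNJ2 run MRG 1 averages 62.2%, and MSG 1, 2, 3 and 6 stand at 0%.

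Averaged over all 224 sites of KCNJ2, single cows stood at 49.3% to 60.3% in MSG and at 31.4% to 57.3% in MRG, where MRG 3 and MRG 4 overlapped with the MSG cows. Means over the sites of 1 direction, here and for the genes below, separate the groups by construction, since the sites were split by their direction in these cows. Its 149 higher sites averaged 64.2% ± 14.1 in MSG and 24.9% ± 16.1 in MRG, and its 75 lower sites 39% ± 24.6 in MSG and 78.6% ± 12.4 in MRG. MSG 2 stood at 90.3% over the higher sites and at 0.27% over the lower ones, whereas MRG 1 stood at 2.30% and 89.4%. Only 5 sites lay inside the gene model (60608545 to 60618841), all lower in MSG, and 219 lay beyond its far end, up to 314 kb from the start. Over 100 kb from the start 105 of 140 sites were higher, and within 50 kb 24 of 40. Its 4 promoter sites, at 2.73 kb and 2.98 kb downstream of the start, were lower in MSG. At the site with the largest of these differences (chromosome 19, 60616111, minus strand) values ran from 0% through 62.3% to 100% in MSG, against 87.5%, 100% and 100% in MRG, with a difference of -38.5 points (SE 16.1, limma adjusted p = 0.0856). MSG 2 alone stood at 0 at all 4.

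KCNJ16, the neighbour of KCNJ2 on chromosome 19, encodes an inward rectifier subunit that works in pairs with others, known best from the kidney. It had 25 of 36 sites higher in MSG, averaging 42.5% ± 26.1 in MSG and 11.6% ± 9.25 in MRG, and 11 lower, averaging 55.9% ± 36.4 in MSG and 90.9% ± 2.14 in MRG. MSG 2 stood farthest from MRG in both sets, at 87.4% over the higher sites and 0% over the lower ones. Without MSG 2 the mean difference over the higher sites was 21.9 points, against 30.9 with it. KCNJ11 had 21 of 25 sites higher, 16 of its sites in 1 run inside ABCC8 where MSG 4 and MRG 1, 2, 4 and 6 averaged 0% over the 12 higher sites.

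**Figure D5:**
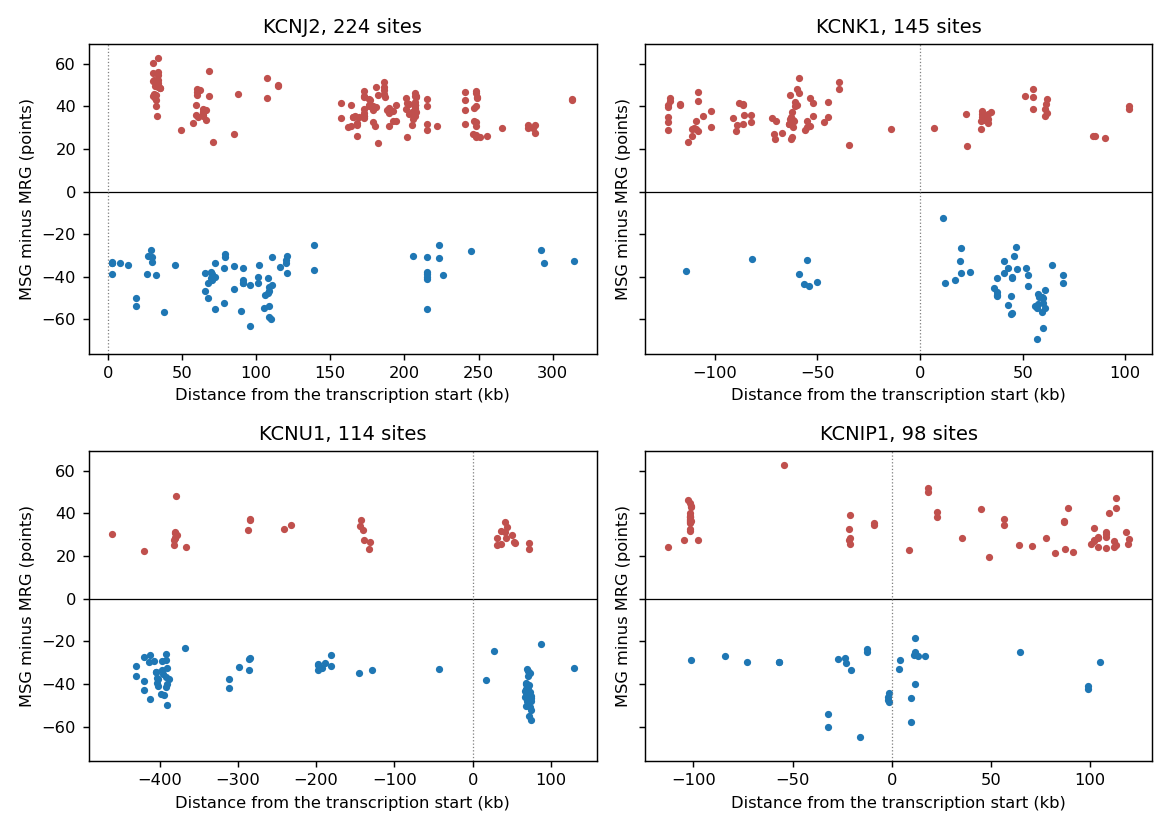
Difference of mean methylation, MSG minus MRG in percentage points, of each listed site of KCNJ2, KCNK1, KCNU1 and KCNIP1 against its distance from the transcription start in kb (negative is upstream); red points are higher and blue points lower in MSG. Neighbouring sites often share a direction, as near 74.0 kb of KCNU1, where 22 of the 24 sites of a run were lower. The longest runs hold sites of both directions. KCNK1 is mostly higher upstream, with 67 of 74 sites, and more often lower inside the gene.

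Among the tandem pore domain channels, KCNK1 split by position. Upstream of its start 67 of 74 sites were higher in MSG, and inside the gene model 23 of 64. Its 95 higher sites averaged 79.4% ± 6.54 in MSG and 44% ± 25 in MRG. MRG 5 stood at 1.65% over them and at exactly 0 at 88 of 143 sites of the gene, and without MRG 5 the difference was 26.9 points, against 35.4 with it. The 50 lower sites averaged 31.3% ± 20 in MSG and 74.3% ± 16 in MRG. Among its sites with no overlap and a value in every cow, the one with the largest difference, in the intron (chromosome 28, 6511700, plus strand), stood at 0%, 18.2% and 40% (lowest, median, highest) in MSG, against 50%, 95.5% and 100% in MRG, a difference of -64.0 points (SE 15.7, limma adjusted p = 0.0781).

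KCNK10 encodes a leak channel opened by stretch, heat and fatty acids, and 74 of its 77 sites lay inside the gene. Its 50 higher sites averaged 49.5% ± 9.88 in MSG and 15.1% ± 13.5 in MRG. Its 27 lower sites averaged 45.7% ± 15.7 in MSG and 82.1% ± 13.9 in MRG. Over all 77 sites single cows stood at 42.5% to 53.2% in MSG and at 34.9% to 45.4% in MRG, and MRG 6 overlapped with the MSG cows. At the intronic site on chromosome 10, 99982698 (plus strand, 91 kb from the start), MSG cows stood at 33.3%, 47.2% and 69.2%, against 0%, 0% and 31.6% in MRG. Only MRG 6 was above 0 there among the MRG cows, and limma's adjusted p was 0.0800 (difference 45.0 points, SE 15.2). A cow at exactly 0 was present at 45 of the 50 higher sites and at 6 of the 27 lower ones.

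KCNK13 encodes a leak channel known to supply the potassium efflux for inflammasome activation in mouse microglia. It had 21 of 33 sites lower, with means of 54.1% ± 23 in MSG and 85.1% ± 8.82 in MRG, and 20 of its sites lay in the neighbour TDP1. KCNK9, an acid-sensitive leak channel, had 12 of 19 sites higher, averaging 88% ± 16.9 in MSG and 56% ± 23.5 in MRG. Of its MSG cows 5 stood at 93.8% or more and MSG 3 at 53.5%. KCNK18, a leak channel regulated by calcium through calcineurin, had 5 of 8 sites lower, at 18.9% ± 18 in MSG and 55.2% ± 12.1 in MRG. KCNK5, an alkaline-activated leak channel that is induced in activated human T cells, had 2 intergenic sites, both lower, at 29.7% ± 28.7 in MSG and 64.8% ± 35.9 in MRG.

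For KCNU1 as a whole, the 79 lower sites had means of 34.9% ± 28 in MSG and 72.7% ± 14.8 in MRG, and 35 higher sites averaged 65.4% ± 12.7 in MSG and 35.4% ± 9.58 in MRG. The lower sites lay both inside the gene model, 34 of 47, and upstream of it, 45 of 67, as far as 429.7 kb from the start. MSG 4 and MSG 5 each stood at exactly 0 at 61 of the gene's sites. KCNMA1 had 23 of 32 sites higher, averaging 80.2% ± 15.5 in MSG and 47.6% ± 15.1 in MRG, and 28 of the 32 lay inside the gene. KCNN4 encodes the calcium-activated channel that keeps the voltage of activated T cells and macrophages negative. Its 4 sites were all higher, averaging 54.8% ± 20.4 in MSG and 27.5% ± 17.6 in MRG, with limma adjusted p of 0.100 to 0.197. At its site on chromosome 18, 51968452, minus strand, MSG 1, 2 and 3 stood at 41.7%, 80% and 52.9% and MRG 1 at 27.3%, with all other cows at 0.

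Voltage-gated pores had fewer sites each. KCNC1, whose channel lets neurons fire fast, had 38 of 59 sites higher in MSG, averaging 76.5% ± 15.3 in MSG and 41.6% ± 29.8 in MRG. MRG 1 stood at 2.89% over these sites and MRG 3 at 91.2%, so the MRG cows ran across nearly the whole scale. At the KCNC1 site with no overlap, a value in every cow and the largest difference (chromosome 15, 34750046, minus strand, intronic) MSG cows stood at 66.7%, 81.7% and 100%, against 20%, 43.6% and 63.6% in MRG (difference 40.8 points, SE 15.4, limma adjusted p = 0.0829). KCNB2, a delayed rectifier pore, had 2 intergenic sites, both higher, averaging 76% ± 5.76 in MSG and 43.3% ± 11.1 in MRG with no cow at 0. KCND2 had 10 of 12 sites higher, at 68.5% ± 23.2 in MSG and 34% ± 26.5 in MRG.

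KCNA3 encodes the voltage-gated channel that sets the resting voltage of T cells. Both of its listed sites lay on chromosome 3 in intergenic sequence 33.6 kb and 34.0 kb from the start. Over them MSG cows averaged 49.2%, 96.3% and 100% (lowest, median, highest), against 0%, 50.7% and 93.8% in MRG. In MRG, cows 1, 2 and 4 stood at 79.8% or more, cow 6 at 21.7% and cows 3 and 5 at 0. The limma adjusted p values were 0.0830 and 0.0870. KCNA2, a related pore that can join KCNA3 in one channel, had 1 site, at 95.3% ± 3.93 in MSG and 69.4% ± 28.2 in MRG. KCNQ1, whose channel repolarises heart muscle and serves epithelia, had 6 of 8 sites higher, at 44.8% ± 14.5 in MSG and 14.1% ± 11.1 in MRG, all 8 inside the gene. KCNH2, the pore of the rapid delayed rectifier current of the heart, had 1 site, at 82.8% ± 17.3 in MSG and 59.3% ± 29.9 in MRG. KCNJ15, an inward rectifier subunit, had 2 of 3 sites lower, at 61.8% ± 17.4 in MSG and 88.4% ± 6.29 in MRG.

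Of the 17 potassium channel genes listed here as channels of blood leukocytes, 13 had a site. Together they had 218 of 343 sites higher in MSG (63.6%), against 52.7% of all listed sites, and KCNJ2 supplied 224 of the 343. The median difference with its sign was 30.3 points, against 22.7 points over all listed sites, and it follows that share. Without the sign the median was 33.5 points over the 1262 potassium channel sites and 32.7 points over all listed sites. By limma's test 0 of the 343 sites passed, as did 0% of all listed sites. Of the 2 tiles 1 passed, that of KCNJ2, against 73.3% of all listed tiles. KCNAB2, KCNE1, KCNE3 and KCNK6 had no listed site.

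Auxiliary subunits held 11 of the 24 promoter sites. KCNIP1 encodes a calcium-binding protein that brings transient voltage-gated pores to the cell surface and slows their inactivation. It had 66 of 98 sites higher in MSG, averaging 62.2% ± 23.5 in MSG and 28.7% ± 11.8 in MRG, and 32 lower, at 47.4% ± 25.1 in MSG and 82.7% ± 11.5 in MRG. Its 4 promoter sites were all lower. They were 2 CpGs read on both strands, 2.13 kb and 1.59 kb before the starts of different gene models on chromosome 20. At the site 2623720 (plus strand) MSG 1, 2 and 3 stood at 0% and MSG 4, 5 and 6 at 53.8%, 38.5% and 85.7%, against 53.3% to 100% in MRG (difference -48.5 points, SE 16.1, limma adjusted p = 0.0792). MSG 1, 2 and 3 stood at 0 at all 4 promoter sites.

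Further KCNIP1 sites repeated these steps between cows. In a run of 17 sites, 16 of them higher in MSG (chromosome 20, 2518088 to 2519889, intronic), MSG cows averaged 93.6%, 41.6%, 92.6%, 0%, 95.1% and 48%, against 0%, 0%, 48.5%, 0%, 42.3% and 50.9% in MRG. MSG 4 and MRG 1, 2 and 4 stood at exactly 0 at all 16, so cows of both groups shared the lowest level.

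KCNMB1 and KCNMB2 encode beta subunits that tune the large-conductance channel of KCNMA1, the one in smooth muscle and the other with fast inactivation. KCNMB1 had 8 sites, all higher, at 93.6% ± 3.39 in MSG and 67.8% ± 26.6 in MRG, with 2 in the promoter. MRG 4 and MRG 6 stood at 33.2% and 34.4%, and the other MRG cows at 78.5% to 91.2%. KCNMB2 had 16 of 24 sites lower, at 40.3% ± 12.4 in MSG and 75.1% ± 13.7 in MRG. At its intergenic site on chromosome 1, 88239588 (minus strand, 44.8 kb before the start), MSG cows stood at 0%, 20% and 44.4%, against 60%, 97.6% and 100% in MRG. That difference of -66.2 points (SE 15.6, limma adjusted p = 0.0781) was the largest among potassium channel sites with no overlap and a value in every cow.

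Of the other genes with 2 promoter sites, KCNC4, a fast voltage-gated pore, had both higher in MSG, being 1 CpG read on both strands 2.55 kb downstream of the start. On the minus strand MSG cows stood at 41.7%, 48.3% and 100%, against 0%, 22.7% and 64.3% in MRG (difference 34.9 points, SE 16.1, limma adjusted p = 0.0896). KCNE2, a small subunit that joins several voltage-gated pores, had 1 promoter site higher and 1 lower, and 14 of its 19 sites were lower, at 26.6% ± 28.3 in MSG and 58.7% ± 33 in MRG.

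Genes that work with potassium channels were taken from a list of 37, of which 23 had a site. Of their 480 sites 310 were higher in MSG (64.6%, against 52.7% of all listed sites). The median difference with its sign, which follows that share, was 27.6 points, against 22.7 points. By limma's test 0 of these sites passed in either direction, as did 0% of all listed sites. The 1 listed tile, near the calcium store sensor gene STIM2, did not pass either, against 73.3% of all listed tiles that did. DPP6 and DPP10, which encode partners of the KCND pores, had 71 of 130 and 43 of 75 sites higher. SLC12A2, the sodium, potassium and chloride cotransporter, had 44 of 48 higher, averaging 71.4% ± 19.3 in MSG and 37.6% ± 34.6 in MRG. LRRC52, a partner of KCNU1 in mouse sperm, had 30 of 47 higher, at 80.5% ± 17.8 in MSG and 39.5% ± 30.1 in MRG.

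Marker genes of blood cell types also carried listed sites. They covered 6 of 8 T cell genes (47.1% of 68 sites higher in MSG), 5 of 7 B cell genes (60% of 10), 4 of 6 NK cell genes (80% of 25), 3 of 6 monocyte genes (64.6% of 48), 2 of 7 neutrophil genes (57.1% of 21) and 3 of 8 erythroid and platelet genes (42.5% of 167). Single genes supplied much of some lists. NCR1 had 14 of the 25 NK cell sites, CD163 26 of the 48 monocyte sites and GYPC 162 of the 167 erythroid and platelet sites. Higher in MSG were 11 of 14 sites of NCR1, 5 of 5 of KLRD1, 3 of 3 of KLRK1 and 1 of 3 of PRF1. Averaged per cow, NK cell genes stood at 56.9% to 75.6% in MSG, against 22.5% to 51.9% in MRG, without overlap. For T cell genes the ranges were 39.4% to 48.4% in MSG and 43.4% to 52.1% in MRG, and for monocyte genes 61.1% to 78% in MSG and 50.5% to 77.8% in MRG. They were 54.3% to 79.8% in MSG and 47.1% to 70.8% in MRG for B cell genes, and 59.4% to 74.8% in MSG and 38.2% to 75.8% in MRG for neutrophil genes. Erythroid and platelet genes stood at 40% to 70.4% in MSG and 42.5% to 69.3% in MRG. These rows too had been chosen for their difference, and their part in the potassium channel values was not tested.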

How the data were processed

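Whole-blood DNA of 12 cows was converted enzymatically and sequenced, per the labels' protocols. The submitters' processing notes name fastp 0.23.1, Bismark, DRAGEN and ChIPseeker 1.32.1, and the build ARS-UCD1.2; the test behind the q-values was not given in the sources used here. For sites and tiles, the authors deposited the percent methylation of each cow, the authors' difference score in percentage points, p-values and q-values, nearest gene and annotation, per the file headers. A further 36 columns of coverage and read counts carry numbers rather than cows and were not used, so depth is not used and the foreseen logistic test was replaced by limma on percent.

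Each row was tested with limma 3.58.1 in R 4.3.3 (two-sided, no covariate, all 12 cows, Benjamini-Hochberg over the table, threshold 0.05). Exact permutation over 924 regroupings, whose smallest p is 0.00216, the logit scale, row filters, a variance trend, a threshold of 0.01 and leaving out each cow were alternatives. Each sample is 1 cow. Simulated data were normal draws around 50% with each row's own spread, and 200 rows of each table were changed by 35 points. Limma recovered 50% of the changed tiles (of 1227 rows). It recovered 0% of the changed sites (of 196275 rows), and 60.5% at an unadjusted p under 0.05. Every real row had been selected for a difference, unlike the simulated ones. These shares therefore do not give the power of the tests on the real rows.

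Named genes were those with a tile, the 8 with most sites, the 5 with most promoter sites, the 6 largest sites without overlap (1 per gene, a value in every cow) and every gene of the leukocyte channel list with a site. From the partner list the 4 genes with most sites are named, ties going to the alphabetically first symbol. The members, lists and rules were chosen with earlier results of these data known. Gene names came from the deposited tables; KCN symbols were counted in RefSeq's ARS-UCD2.0 table, from which no coordinates were taken.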

Additional observations from a re-analysis of the deposited data

Results flagged for a closer look

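In 4 of 66 groups of cows tested, 1 cow stood apart from the rest of its group by the gap to its neighbour relative to the range. Chance flags about 1 group in 20, which is close to this share. Groups had 6 cows, except for 5 MRG cows in the KCND2 tile, and the overlapping KCNK1 tiles with identical values were both counted. In the upstream KCNK1 tile, 122 kb before the start, MSG 2 stood at 37.5% and the other MSG cows at 75% to 89%. In the KCNU1 tile MRG 4 stood at 45.3% and the other MRG cows at 78.2% to 85.8%. Over the higher sites of KCNA3 MSG 1 stood at 49.2% and the other MSG cows at 91.9% to 100%, and over those of KCNK9 MSG 3 stood at 53.5% and the other MSG cows at 93.8% to 96.2%.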

How the results depend on the processing

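Of the 9 potassium channel tiles, limma passed 8, 5 on the logit scale, 4 by the exact permutation test and 0 at an adjusted p under 0.01. Leaving out each cow in turn gave 4 to 9, with 4 without MSG 1, MRG 2 or MRG 5 and 5 without MSG 3 or MRG 1; the cause of these losses was not tested. The call ended for the upstream KCNK1 tile without MSG 1, 3, 4, 5 or 6 or MRG 1, 2, 3 or 5 (adjusted p 0.0563 to 0.0924), and for the KCNK1 tile at 29.8 kb without MSG 1, 2, 3 or 6 or MRG 1, 2 or 5 (0.0506 to 0.0622). It ended for the KCNK1 tile at 44.3 kb without MSG 1 or 2 or MRG 1, 2 or 5 (0.0530 to 0.0621), and for KCND2 without MSG 1, 2, 3 or 5 or MRG 2, 3, 4 or 5 (0.0501 to 0.0812). MRG 2 had no value in the KCND2 tile, so leaving that cow out acted there only through the other tiles. Of the 1262 sites 0 passed, 193 when only the 275 sites with no cow at 0 were tested among such rows, and 0 to 1 with a cow left out. The single site, in KCNIP1 (chromosome 20, 2566239), passed without MSG 6, the only MSG cow at 0 there (adjusted p = 0.0474). Sites higher in MSG made up 59%, but 52% with no cow at 0, 53.9% at 40 points or more, 52.8% inside genes, and 59% to 59.1% with a cow left out. For tiles it was 55.6%, and 33.3% to 62.5% in the other settings; no tile reached 40 points, so that setting gave no value. Mean differences of named genes were taken over sites of 1 direction, which fixes their sign. They moved by less than the spread between cows in all 345 alternatives. Most of these left out 1 cow, which cannot move a mean over 6 cows that far, so the count does not show stability. In proportion KCNH2, with 1 site, fell most, from 23.5 points to 15.9 without MRG 2. No paired analysis was possible because the replicate numbers only follow the order of the records and pair no cows.

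Rows were selected on these cows, so no count here estimates how many sites or tiles differ. Depth, genotype and cell counts were not used.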

Other observations

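Among the 40 potassium channel genes with 5 or more sites, 6 had all sites in one direction, a set looked up after the values were seen. KCNV2, a silent subunit of the retina, had 11 sites lower in MSG, and KCNK16, a leak channel known from the pancreas, had 7 lower, all placed in KIF6. KCNT1, the sodium-activated channel of neurons, had 9 higher, KCNMB1 had 8, and KCND3, a transient voltage-gated pore, and KCNV1, a silent subunit, had 5 each. Over a run of 8 KCNT1 sites (chromosome 11, 103309057 to 103312105, 23.9 kb to 26.9 kb before the start) MSG cows averaged 36.7%, 77.4% and 80.2% (lowest, median, highest), against 0%, 32% and 76.1% in MRG. MRG 1 and MRG 3 stood at exactly 0 at all 8 sites. MRG 4 stood among the MSG cows, and MRG 5, at 38%, just above the lowest of them, MSG 5. Next to KCNK16 on chromosome 23, the 2 sites of KCNK17 and the 2 of KCNK5 were also lower in MSG.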
